A study of Oryza sativa with 2 samples.

Results

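Genes for cellulose synthases, cellulose synthase-like proteins, COBRA-like proteins and GT43 glycosyltransferases are described here on leaf arrays of rice. They are the genes of the rice reference whose symbol or synonym is CESA, CSLA to CSLH or BC1L with a number, GT43 with a letter, or BC1. The rule found 50 genes, and 41 of them were among the 17905 genes that had a probe set. Of the 50, LOC4347540 carries BC1 as a synonym and is otherwise named bHLH081, the name of a transcription factor. It was at the background floor on both arrays and is left out of every class, which left 49 genes, 40 of them measured. The 49 were 9 CESA, 26 CSL, 5 BC1 and BC1L, and 9 GT43 genes.

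Plant cell walls are built from cellulose and from matrix polysaccharides, and the enzymes that polymerise them are encoded by a few families of glycosyltransferases. Cellulose synthases (CESA) assemble in the plasma membrane into complexes that spin cellulose microfibrils, one set of CESA proteins serving the primary wall of growing cells and another the secondary wall of fibres and vessels. The related cellulose synthase-like proteins (CSL) make other backbones. CSLA proteins make mannans, CSLC proteins the glucan backbone of xyloglucan, and the CSLF and CSLH proteins of grasses the mixed-linkage glucan that is typical of their primary walls. Glycosyltransferases of family GT43, such as IRX9 and IRX14, take part in xylan elongation, and BC1, a COBRA-like protein anchored at the cell surface, is needed for normal cellulose in the mechanical tissues of rice, where its loss makes the culm brittle.

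The series compared leaves of rice seedlings, cultivar indica 9311, carrying OsEATB, a gene of the ethylene response factor family, as a transgene with leaves of nontransgenic 9311 seedlings. Each group was 1 array of RNA from 10 seedlings at the 4-leaf stage, grown under normal conditions on diluted Murashige and Skoog medium at 28 °C with 14 h of light and 10 h of darkness. The promoter of the transgene and how many lines were used were not given in the sources used here. OsEATB was found under no symbol or synonym of the reference, so that its own level is not reported. With 1 array per group there are no replicates and no test, and how precise the values below are is limited by that number of arrays.

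Signals are the authors' log2 values, and a ratio is the transgenic minus the nontransgenic log2 signal. Signals below the 40th percentile of their array (4.61 on the transgenic and 4.41 on the nontransgenic array) were raised to that floor, and a ratio with one side there is a lower bound. A gene entered the counts if its signal reached the median of its array (5.32 on the transgenic, 5.16 on the nontransgenic array) on at least 1 array. The brightness of a probe set depends on its probes as well as on the RNA, so that signals are compared between the arrays and not between genes. In leaf RNA, fewer cells of a type and less RNA per cell cannot be told apart.

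The leaf label was checked against marker genes. All 5 measured leaf markers, namely rbcS, rca, CAB2R, LHCP and PETE, had log2 signals between 15.75 and 16.26 on the transgenic and between 15.26 and 15.86 on the nontransgenic array, and their ratios lay between 0.39 and 0.49. Their summed linear signal was 323880 on the transgenic and 240515 on the nontransgenic array. The 3 root markers summed to 810.4 on the transgenic and 438.0 on the nontransgenic array, with Lsi2 at the floor on both. Most of that came from Lsi1, at 9.57 on the transgenic and 8.62 on the nontransgenic array, 1.92-fold higher. The 4 meristem and stem markers summed to 3318 on the transgenic and 3020 on the nontransgenic array. LOG made up most of it, at 11.65 on the transgenic and 11.52 on the nontransgenic array. OSH1 and OSH71 were below the level filter. OSH6 had 5.97 on the transgenic and 4.66 on the nontransgenic array, 2.47-fold higher. It reached the filter on the transgenic array only, so that its ratio could not be below 0. For the 8 seed markers the sums were 6356 on the transgenic and 7174 on the nontransgenic array, with 4 genes at the floor on both. Of the others, GLB (11.87 on the transgenic, 12.27 on the nontransgenic array) and GLUA2 (11.23 and 10.96 in that order) were bright. RAG2 was 1.86-fold lower on the transgenic array. GluB5 had 6.49 on the transgenic and 4.65 on the nontransgenic array, 3.58-fold higher. Like OSH6, it reached the filter on the transgenic array only. For the 3 anther and pollen markers the sums were 58.2 on the transgenic and 149 on the nontransgenic array. RTS (1.14) and C6 (1.24) were under the floor on the transgenic array. C6, at 5.68 on the nontransgenic array, passed there only, which fixed its direction, and was at least 2.10-fold lower. MEL1 was above the floor on both, at 5.74 on the transgenic and 6.24 on the nontransgenic array. The 3′ minus 5′ log2 signal of the actin control, which grows with RNA degradation, was 4.36 on the transgenic and 3.56 on the nontransgenic array, that of the Gapdh control 2.61 on the transgenic and 3.26 on the nontransgenic, and that of the cyclophilin control 0.84 on the transgenic and 0.94 on the nontransgenic. All 18 hybridisation controls, which are added in fixed amounts, were brighter on the transgenic array, by a median of 0.93 on the log2 scale. Both deposited arrays had the same trimmed mean signal once unlogged, so that each ratio below is relative to the bulk of the transcripts. Centred on the hybridisation controls instead, the median log2 ratio of all genes was -0.94, with 180 genes at least 2-fold higher and 6654 lower, and BC1L6, CESA4, CSLA7, CSLA9, CSLD2 and CSLE1, whose ratios were otherwise above 0, turned to ratios below 0. The part of these differences in the results on wall genes was not tested.

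Of the 40 measured wall genes, 28 passed the level filter, 8 were below it and 4 were at the floor on both arrays. Among the 28, 2 were at least 2-fold higher in transgenic leaves, against 6.04% of all 15192 genes that passed, and 1 was at least 2-fold lower, against 4.43%. These were BC1L9 and CSLC3, which were higher, and GT43C, which was lower. A ratio below 0 was found for 20 of the 28, against 51.4% of all genes, and their median log2 ratio was -0.17, against -0.01 over all genes. Counted either way, 3 of the 28 reached 2-fold, against 10.5% of all genes. Of these 28, 4 genes (CSLA9, CSLC3, CSLC9 and GT43C) reached the filter on 1 array only. A gene that passed on the transgenic array with its nontransgenic signal at the floor could not have a ratio under 0.90.

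**Figure D1:**
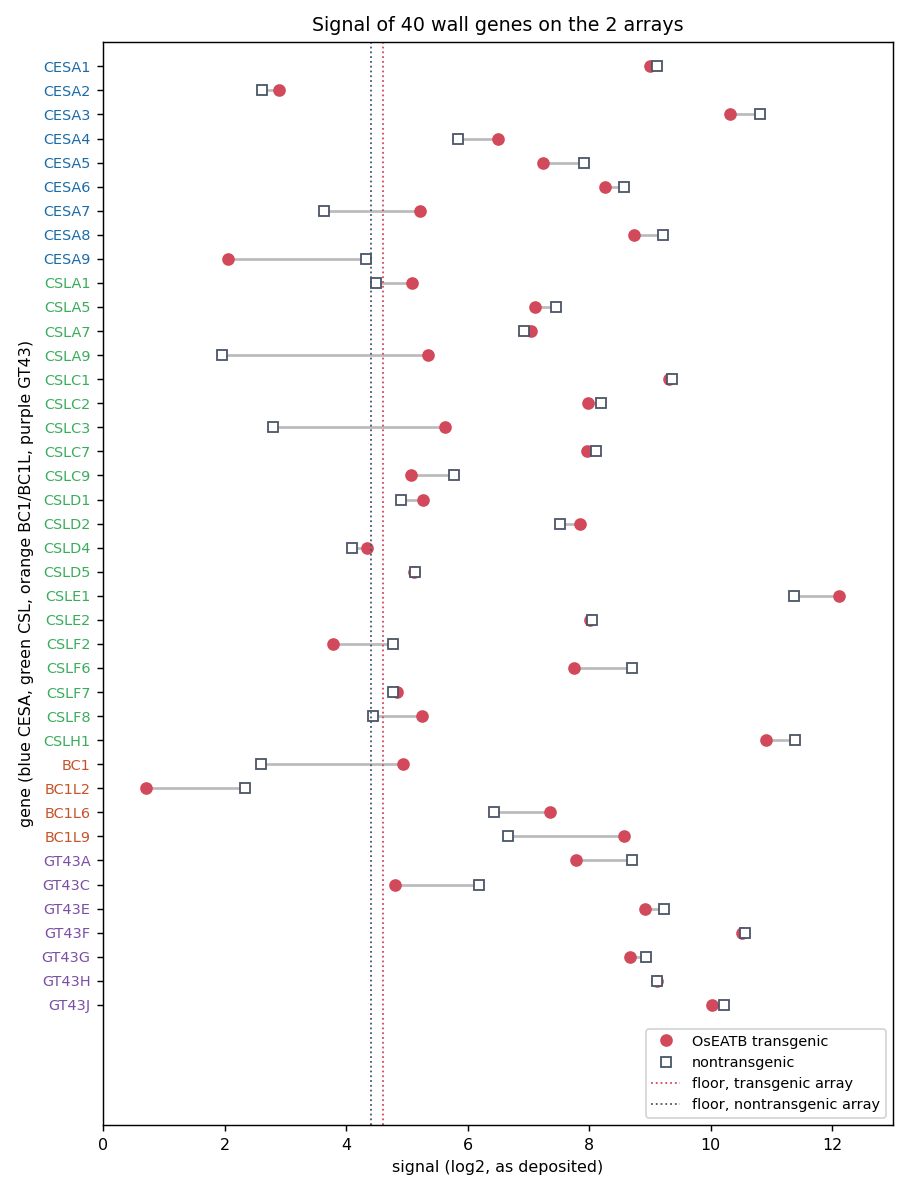
Log2 signals of the 40 measured wall genes on the transgenic array (filled circles) and the nontransgenic array (open squares), 1 array each, with dotted lines at the floors of 4.61 and 4.41. CESA3, CSLE1, CSLH1, GT43F and GT43J have signals above 10 on both arrays, and CESA2, CESA9, BC1L2 and CSLD4 lie below the floor on both.

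The primary wall cellulose synthases were lower in transgenic leaves, each by less than 2-fold. CESA1, CESA3 and CESA8 are subunits of the primary wall complex, and CESA5 and CESA6 are further primary wall isoforms. CESA3 had a signal of 10.32 in transgenic leaves and 10.81 in nontransgenic leaves, a ratio of -0.49 or 1.40-fold lower, and its other probe set was listed at 0 in transgenic and 5.41 in nontransgenic leaves. CESA8 stood at 8.75 in transgenic and 9.22 in nontransgenic leaves, 1.39-fold lower. CESA5 stood at 7.24 in transgenic and 7.92 in nontransgenic leaves, 1.61-fold lower, which was the lowest ratio of the class at -0.68. The remaining members differed less. CESA6 stood at 8.26 in transgenic and 8.58 in nontransgenic leaves (ratio -0.31), and CESA1 at 9.001 in transgenic and 9.12 in nontransgenic leaves (ratio -0.12). All 5 had a ratio below 0, against 51.4% of all genes, with a median of -0.47, against -0.01. The 5 stayed below 0 in each of the 12 processing alternatives tried, except that CESA5 was not counted with the level filter at the 75th percentile. Many alternatives could not turn the sign. Changes of the floor or the level filter left these ratios as they were. A pseudocount or hybridisation control centring could not bring them above 0. The ratios of genes of like brightness were spread more widely than those of the 5. In the second of 4 equal groups of genes ranked by mean signal, which holds CESA1, CESA6 and CESA8, 95% of the ratios lay between -1.17 and 1.34, with a median of -0.07.

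Of the secondary wall cellulose synthases, CESA4 passed the level filter on both arrays, and CESA7 and CESA9 did not pass. CESA4, CESA7 and CESA9 form the complex of the secondary wall, and mutations in them give brittle culms. CESA4 had 6.50 in transgenic and 5.85 in nontransgenic leaves, a ratio of 0.65, on its brighter probe set. Its other probe set was at 3.55, which is under the floor, in transgenic and 5.26 in nontransgenic leaves. That probe set passed through the nontransgenic array alone, with its transgenic signal at the floor. Its ratio therefore had to lie below 0, by at least 0.55, and its opposite direction adds nothing. The mean ratio of both probe sets, 0.00, includes this fixed direction. CESA7 stood at 5.22 in transgenic leaves and at 3.63, under the floor, in nontransgenic leaves, and did not pass the filter. CESA9 had 2.06 in transgenic and 4.33 in nontransgenic leaves, both under the floor, and no ratio was formed. CESA2, the remaining isoform, was under the floor on both arrays too, at 2.90 in transgenic and 2.61 in nontransgenic leaves. With CESA4 alone passing the filter, the secondary wall set gave no direction.

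The COBRA-like genes held the largest ratio among the wall genes with both signals above the floor. The bounds of CSLA9 and CSLC3 cannot be ranked against it, and without a floor their ratios were 3.38 and 2.84. BC1L9 (LOC4349011), a BC1-like gene of the COBRA family, had a signal of 8.58 in transgenic and 6.67 in nontransgenic leaves, which is 3.76-fold higher. Its other probe set had 6.08 in transgenic leaves and 2.26, under the floor, in nontransgenic leaves, a ratio of at least 1.67. That probe set passed through the transgenic array alone, with its nontransgenic signal at the floor, and could not have a ratio under 0.90. Its direction therefore adds nothing to that of the brighter probe set. BC1L6 (LOC4343844) stood at 7.36 in transgenic and 6.43 in nontransgenic leaves, 1.90-fold higher, just inside the 2-fold line. BC1 itself had 4.94 in transgenic leaves and 2.60, under the floor, in nontransgenic leaves and did not pass the filter, and BC1L2 (0.70 in transgenic, 2.33 in nontransgenic leaves) was under the floor on both arrays. In the reference BC1 and BC1L2 lie side by side, as do BC1L6 and BC1L7, the last of which is not analysed here. The ratio of 1.91 for BC1L9 lay outside the central 95% of ratios in its brightness group. Its mean signal of 7.63 is close to the boundary of that group at 7.59, however, and in the dimmest group the central 95% ran from -1.75 to 2.05, which would include it. Genes at least 2-fold higher made up 4.45% of its group and 16.9% of the dimmest.

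**Figure D2:**
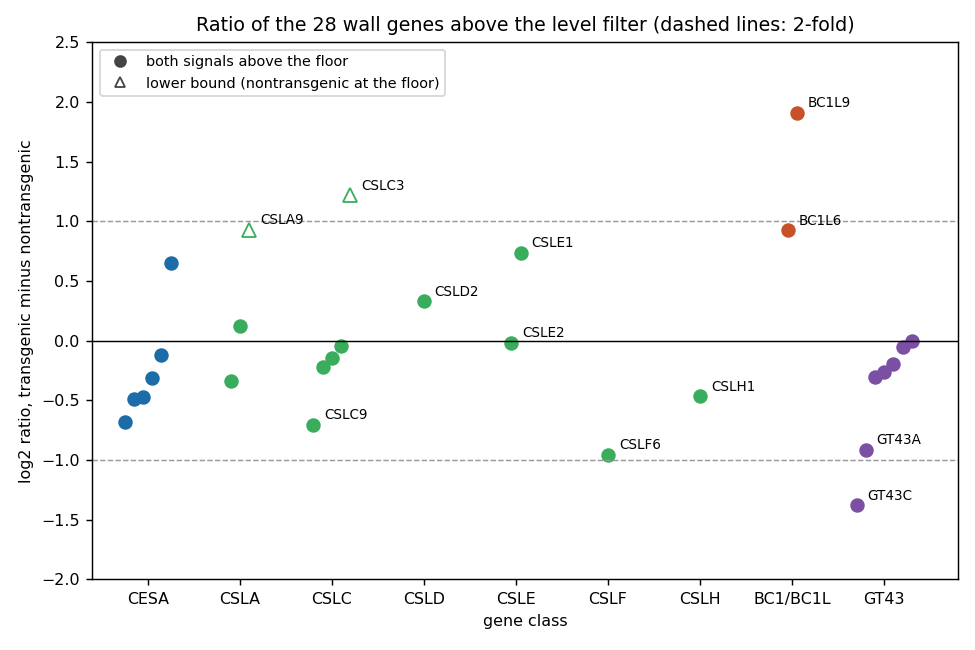
Log2 ratio of the transgenic over the nontransgenic signal for the 28 wall genes that passed the level filter, by class, 1 point per gene, dashed lines at 2-fold. The 7 GT43 genes lie at or below 0, from -1.38 to -0.00 (GT43H turns above 0 with quantile normalization, lowess or median centring), both BC1L genes lie above 0.9 (BC1L6 turns to -0.00 with hybridisation control centring), and triangles (CSLA9, CSLC3) are lower bounds.

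The xylan-related GT43 family had 7 measured members, all of which passed the filter. Their ratios ranged from -1.38 to -0.00, with a median of -0.26, against -0.01 over all genes. All 7 lay below 0, against 51.4% of all genes. GT43H, however, was slightly above 0 with quantile normalization (0.03), lowess centring (0.07) or median centring (0.01). The probe sets used for GT43E, GT43F and GT43J are of types that can also pick up other transcripts. The 7 ratios may therefore not be 7 separate readings. With probe sets of these types left out, 5 GT43 genes remained, all 5 below 0, against 51.4% of all genes, with a median of -0.26. GT43C, named IRX9 in the reference, had 4.81 in transgenic and 6.19 in nontransgenic leaves, 2.60-fold lower. The transgenic signal is near the floor, and the ratio was -0.87 with the floor at the median and -0.81 with a pseudocount. GT43C passed on the nontransgenic array only, so that its ratio could hardly be above 0. GT43A stood at 7.79 in transgenic and 8.70 in nontransgenic leaves, 1.89-fold lower, and it was the next lowest. GT43J, named IRX14, stood at 10.02 in transgenic and 10.22 in nontransgenic leaves, a ratio of -0.20. GT43F, named IRX9L, stood at 10.52 in transgenic and 10.57 in nontransgenic leaves, a ratio of -0.06. GT43E (8.93 in transgenic, 9.23 in nontransgenic leaves) and GT43G (8.68 in transgenic, 8.94 in nontransgenic leaves) had ratios of -0.31 and -0.26. GT43H stood at 9.12 on both arrays. The second probe set of GT43E went the same way, at -0.17. That of GT43F, which did not pass the filter, was at 5.18 in transgenic leaves and listed at 0 in nontransgenic leaves. GT43B and GT43D are not analysed here.

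CSLF6 and CSLH1, the genes of mixed-linkage glucan synthesis that passed the filter, were lower by less than 2-fold. CSLF6 (LOC4344719), the main synthase of this glucan in rice, had 7.75 in transgenic and 8.71 in nontransgenic leaves, 1.94-fold lower and just inside the 2-fold line. Its other probe sets did not pass. One had 1.95, under the floor, in transgenic and 4.54 in nontransgenic leaves. The last had 0.50 in transgenic and 2.81 in nontransgenic leaves, both under the floor. CSLH1 stood at 10.91 in transgenic and 11.38 in nontransgenic leaves, 1.38-fold lower. In the reported setting and the 11 alternatives other than hybridisation control centring, the ratio of CSLF6 ranged from -0.96 to -0.86 and that of CSLH1 from -0.47 to -0.45. The other measured CSLF genes were dim and did not pass. CSLF8 had 5.24 in transgenic and 4.44 in nontransgenic leaves, CSLF7 had 4.84 in transgenic and 4.77 in nontransgenic leaves, and CSLF2 had 3.79, under the floor, in transgenic and 4.78 in nontransgenic leaves. CSLF2 and CSLF8 belong to a run of 5 CSLF genes that lie near one another in the reference (CSLF9, CSLF8, CSLF2, CSLF4, CSLF3), and CSLF6 lies outside it. CSLF3, CSLF4 and CSLF9 are not analysed here.

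Among the genes of xyloglucan and mannan backbones, CSLC1, CSLC2, CSLC7, CSLA5 and CSLA7 had ratios between -0.34 and 0.12. CSLC1 had 9.32 in transgenic and 9.36 in nontransgenic leaves, a ratio of -0.05 that turned to 0.00 with quantile normalization and 0.02 with lowess centring. CSLC2 had 7.98 in transgenic and 8.20 in nontransgenic leaves (ratio -0.22), and CSLC7 had 7.97 in transgenic and 8.12 in nontransgenic leaves (ratio -0.15). CSLC9 was dim, at 5.07 in transgenic and 5.77 in nontransgenic leaves (ratio -0.71). CSLC3 had 5.63 in transgenic leaves and 2.79, under the floor, in nontransgenic leaves, at least 2.33-fold higher. On the log2 scale that bound of 1.22 was 0.47 with the floor at the median and 0.94 with lowess centring. In the CSLA class CSLA5 stood at 7.12 in transgenic and 7.46 in nontransgenic leaves (ratio -0.34), and CSLA7 at 7.04 in transgenic and 6.92 in nontransgenic leaves (ratio 0.12). CSLA9 (LOC4341571) had 5.34 in transgenic leaves and 1.96, under the floor, in nontransgenic leaves, at least 1.90-fold higher. On the log2 scale that bound of 0.93 was 0.18 with the floor at the median and 0.58 with lowess centring. CSLA1 (LOC4328585), which carries CSLA9 as a further synonym, was below the filter at 5.09 in transgenic and 4.48 in nontransgenic leaves, and CSLA3 and CSLA4 are not analysed here.

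Higher signals in transgenic leaves were found for CSLE1 and CSLD2, other than with hybridisation control centring. CSLE1, a member of a class whose product is not settled, had 12.12 in transgenic and 11.38 in nontransgenic leaves, 1.66-fold higher. It was the only one of the 28 in the brightest of the 4 groups, and its ratio of 0.73 lay just outside the central 95% there, which ran from -0.59 to 0.71. Genes at least 2-fold higher made up 1.03% of that group. CSLE2 was read by 3 passing probe sets that disagreed in size. The brightest, which may hybridise to several transcripts, had 8.02 in transgenic and 8.04 in nontransgenic leaves. Its ratio was -0.02, and above 0 with quantile normalization and lowess centring. The next had 7.61 in transgenic and 8.32 in nontransgenic leaves, a ratio of -0.72, and the dimmest had 6.47 in transgenic and 7.63 in nontransgenic leaves, a ratio of -1.17. Of the CSLD genes, which in plants act in tip growth and in leaf and culm form, CSLD2 stood at 7.85 in transgenic and 7.52 in nontransgenic leaves (ratio 0.33). CSLD1 (5.26 in transgenic, 4.90 in nontransgenic leaves) and CSLD5 (5.12 in transgenic, 5.13 in nontransgenic leaves) were below the filter. CSLD4, known from narrow-leaf mutants of rice, was under the floor on both arrays (4.34 in transgenic, 4.10 in nontransgenic leaves). CSLE6, which neighbours CSLE1 in the reference, is not analysed here.

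**Figure D3:**
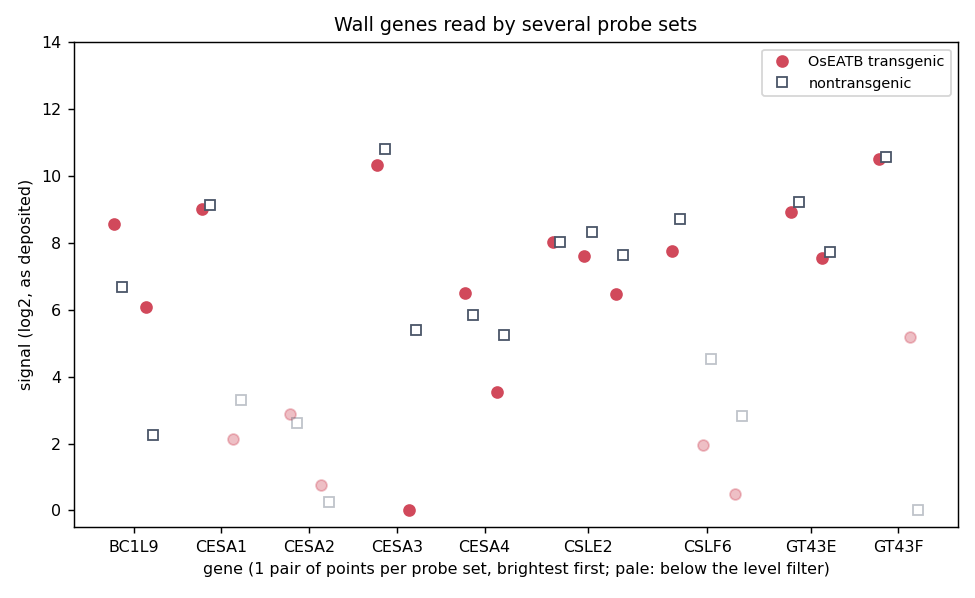
Log2 signals of the 9 measured wall genes that had several probe sets, circles for the transgenic and squares for the nontransgenic array, pale where the probe set did not pass the level filter. Both probe sets of GT43E agree in direction, and those of CESA4 do not. The dimmer probe sets of BC1L9, CESA3 and CESA4 passed on 1 array alone with the other signal at the floor, which fixed their direction.

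Set side by side, the classes had median log2 ratios of -0.39 for 6 CESA, -0.05 for 13 CSL, 1.42 for 2 BC1L and -0.26 for 7 GT43 genes that passed, against -0.01 over all genes. The CSL median turned to 0.00 with quantile normalization and 0.02 with lowess centring. Ratios below 0 were found for 5 of 6 CESA, 8 of 13 CSL, 0 of 2 BC1L and 7 of 7 GT43 genes, against 51.4% of all genes. Among those below 0, CSLC9 and GT43C passed on the nontransgenic array only. Also among them, CSLC7, CSLE2, GT43E, GT43F and GT43J rest on probe set types that can pick up other transcripts. These medians rest on few genes and no test of a difference between classes was run. By brightness, the dimmest group held 9 wall genes, 4 of them with a ratio below 0, against 48.9% of all genes there. The second group held 14, with 12 below 0, against 57.1%. The next held 4, namely CESA3, CSLH1, GT43F and GT43J, all below 0, against 55.3%, and the brightest held 1, with 0 below 0, against 44.4%. From the dimmest to the brightest group, 1, 1, 0 and 0 wall genes were at least 2-fold higher, against 16.9%, 4.45%, 1.82% and 1.03% of all genes, and 1, 0, 0 and 0 were at least 2-fold lower, against 12%, 3.77%, 1.47% and 0.474%. Within these arrays, ratios of the brightest and the next probe set of 1 gene scattered by 0.75, 0.59 and 0.31 (root mean square difference divided by the square root of 2) in genes ranked from dim to bright in 3 groups of 805, 804 and 805. These groups are split at a signal of the dimmer probe set of 6.50 and 8.87. Placed by mean signal, CESA3 (-0.49) and CESA8 (-0.47) had ratios larger in size than the 0.31 of the bright group, and CESA1 (-0.12) a smaller one. The mean signal of CESA8, 8.98, is close to the split at 8.87, however, and its ratio is smaller in size than the 0.59 of the middle group. Against the 0.59 of the middle group, the ratio of CESA5 (-0.68) was slightly larger in size and that of CESA6 (-0.31) smaller. This scatter comes from single arrays and leaves out the spread between plants.

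**Figure D4:**
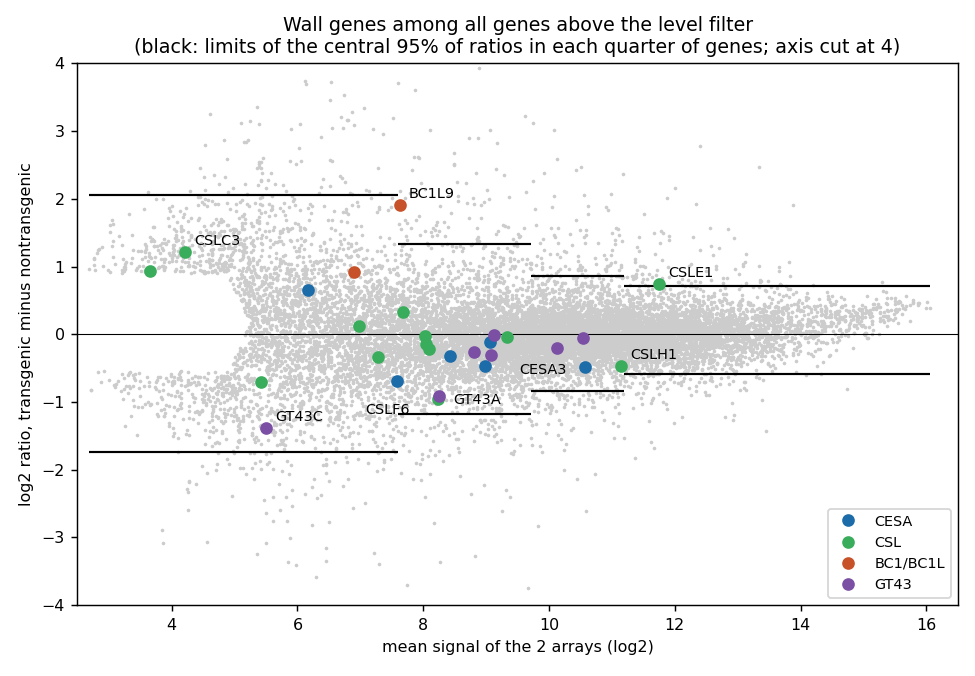
Log2 ratio against mean log2 signal for the 15192 genes that passed the filter (grey) and the 28 wall genes (coloured by class), with black lines at the limits of the central 95% of ratios in each of 4 equal groups by signal (axis cut at 4). BC1L9 and CSLE1 lie outside the lines of their groups, and the gap in the grey cloud at low signal and small ratio is left by the level filter.

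Other wall genes were taken by symbol from lists of related pathways. Nucleotide sugar supply covers sucrose synthases (SUS), which release UDP-glucose, the substrate of cellulose synthase, and the enzymes that interconvert UDP-sugars (UGE, UGD, USP). Of 13 genes that passed there, 0 were 2-fold higher, against 6.04% of all genes, and 0 were 2-fold lower, against 4.43%. A ratio below 0 was found for 2 of the 13, against 51.4% of all genes, and the median was 0.27, against -0.01, in a range of -0.66 to 0.94. In wall assembly, which covers GLU endoglucanases, TBL and XOAT acetyltransferases and UAM mutases, 0 of 14 were 2-fold higher, against 6.04%, and 0 were 2-fold lower, against 4.43%. A ratio below 0 was found for 9 of the 14, against 51.4%, with a median of -0.17, against -0.01. XTH8, a xyloglucan endotransglucosylase, had 8.65 in transgenic and 9.75 in nontransgenic leaves, 2.14-fold lower, and was the 1 gene of its list.

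Of 19 lignin genes that passed, 5 were at least 2-fold higher, against 6.04% of all genes, and 0 were 2-fold lower, against 4.43%, with a list median of 0.12, against -0.01. Of these 5, 4 were in the dimmest of the 4 brightness groups, which held 7 of the 19 and where 16.9% of all genes were at least 2-fold higher, and 3 (LAC23, LAC4 and CAD7) passed through the transgenic array alone, with the nontransgenic signal at the floor, and could not have a log2 ratio under 0.90. The count of 5 is therefore a description of what passed the filter. LAC10, a laccase of the family that polymerises lignin, had 6.89 in transgenic and 5.34 in nontransgenic leaves, 2.94-fold higher. LAC23 had 5.94 in transgenic leaves and 2.19, under the floor, in nontransgenic leaves, at least 2.88-fold higher. LAC4 had 5.76 in transgenic leaves and 2.03, under the floor, in nontransgenic leaves, at least 2.54-fold higher. CAD7, a cinnamyl alcohol dehydrogenase, had 5.73 in transgenic leaves and 1.89, under the floor, in nontransgenic leaves, at least 2.49-fold higher. The fifth was LAC7, at 9.60 in transgenic and 8.55 in nontransgenic leaves, 2.07-fold higher. It falls outside the rule for named genes and was chosen after its value was seen. Of 9 laccases with a probe set 4 passed the filter, and these 4 were the higher ones, of which 2 are lower bounds.

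**Figure D5:**
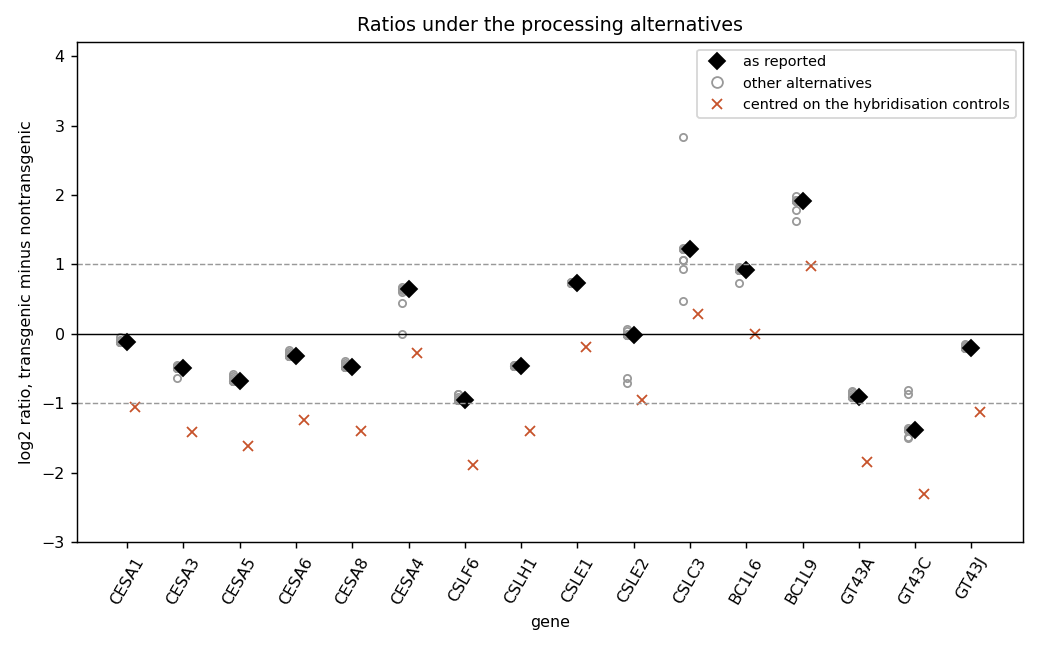
Log2 ratios of 16 wall genes as reported (diamonds), under up to 11 other processing alternatives (open circles) and centred on the hybridisation controls (crosses), with dashed lines at 2-fold. The primary wall CESA genes, CSLF6, CSLH1, GT43A and GT43J keep ratios below 0 throughout. Changes of the floor or the level filter could not turn these signs. Without the crosses, GT43C and CSLC3 alone cross the 2-fold line, and with them BC1L9 (0.98), the 5 primary wall CESA genes, CSLF6, CSLH1, GT43A and GT43J cross it too.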

How the data were processed

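Leaf RNA was measured on 1-colour oligonucleotide arrays, 1 per group. Per the submitters' processing notes the signals were made with MAS5, and the deposited values are log2 signals, as their range shows. The MAS5 version, scaling target and detection calls were not given in the sources used here. Unlogged, both arrays had a trimmed mean of 500.1 (2% at each end), so an overall difference in RNA would not show. Of the value columns, 0 lacked a group.

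Of 57381 probe sets, 187 controls were set apart. Probe sets with 1 gene in the platform's table (22436) were named by gene number through a rice reference (assembly ASM3414082v1), which matched all 17905 genes and served for names and neighbours. A gene was represented by its passing probe set with the highest mean signal, and 2-fold was the threshold. The named genes are the CESA isoforms, BC1, members at 2-fold, the brightest and dimmest of each class and those with disagreeing probe sets. Other members are given too, as are up to 4 genes at 2-fold from each further list. Names shared with other families (C3H, RGP1, rgp2) were left out of the lists, and no symbol matched the list of secondary wall regulators. Members and lists were chosen with earlier results of these data known. Sequences were not analysed here. Python 3.11.15, pandas 2.3.3 and statsmodels 0.14.6 were used. The counting code was run on simulated data in which only bright probe sets were changed, with less noise than the scatter given above. That run does not cover dim genes such as CSLC3 and GT43C. Alternatives changed the floor, the level filter (75th percentile, none, or on the mean), a pseudocount, the centring or normalization (quantile, lowess with fraction 0.3, median, hybridisation controls), or the probe sets used.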

Additional observations from a re-analysis of the deposited data

How the results depend on the processing

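Of 12 alternatives, 10 were planned and 2 (centring on the hybridisation controls, and a level filter on the mean of both arrays) were chosen after seeing the data. The count of members at least 2-fold higher, 2 as reported, was 3 without a floor and with the pseudocount of 32 (BC1L9, CSLA9 and CSLC3), 1 with the floor at the median, with the level filter at the 75th percentile, with lowess centring and with the filter on the mean, BC1L9 in each, and 0 with hybridisation control centring. The count at least 2-fold lower, 1 as reported, was 0 with the floor at the median, with that pseudocount and with the 75th percentile filter, and 16 with hybridisation control centring. That centring moved the median of all genes to -0.94, and the class medians to -1.32 for CESA, -0.97 for CSL, -1.19 for GT43 and 0.49 for BC1 and BC1L genes. BC1L9 stood at 0.98 there. The BC1 and BC1L median was 0.93 without a level filter and 1.91, from BC1L9 alone, with the 75th percentile filter. All genes at least 2-fold higher numbered 918 and those lower 673 as reported, 587 and 529 with the filter on the mean, 297 and 218 with the 75th percentile filter, and 180 and 6654 with hybridisation control centring. Of 318 ratios of single genes under alternatives, 286 moved by less than the scatter between probe sets of 1 gene. Many of the 286 could not move. A gene with both signals above the medians and 1 passing probe set keeps its ratio when the floor or the level filter changes. The other 32 moved by more, among them those of all 28 genes under hybridisation control centring. No paired analysis was possible because each group has 1 array. Replicates could not be left out for the same reason, and signal over background limits the secondary wall CESA, BC1, CSLD and most CSLF genes.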
